A study of Bos taurus with 12 samples.

Results

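The 152 loci described here are those with a mean of at least 100 FPKM in every one of the 4 groups of the study, out of 22445 loci in the table. FPKM divides a gene's sequenced fragments by its transcript length in kilobases and by the library's mapped fragments, so it is a level per length. The members were chosen by these FPKM values alone, after 18 listed IDs were set aside by name, of which 14 also reached the limit. Because every value of every member went into the choice, all that follows describes the members and nothing over them was tested. A group mean at the limit does not say that each library of the group was at the limit.

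All samples came from Holstein cattle and none is labelled with an age. The fibroblast group (BFF) was cultured bovine fetal fibroblasts with no labelled treatment. Its sample group label names SCNT embryos, but its titles, source and cell type labels name fibroblasts. The IVF group was made by fertilising eggs in vitro. The SCNT group was made by somatic cell nuclear transfer, where a body cell's nucleus replaces that of an egg. The fourth group was SCNT embryos labelled with overexpression of KDM5B, a histone demethylase acting on lysine 4 of histone H3, where methylation marks active promoters. Each embryo sample was a pool of 8 embryos at the 8-cell stage. The labels used here do not say how KDM5B was delivered, what the other embryos received in its place, or how many donor lines were used. With 3 libraries per group, 12 in all, the deposited table holds 1 mean per group and gene, so no SD, replicate spread or p-value can be given for any difference below.

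Genes abundant in unrelated cell types are often called housekeeping genes, and textbook examples are the proteins of the ribosome, translation factors, energy metabolism and the cytoskeleton. An early embryo starts from RNA stored in the egg and replaces it as its own genome becomes active, which in cattle happens mainly around the 8-cell stage. A locus can therefore be abundant in an embryo from either source, and these RNA levels do not separate stored from newly made RNA. In such bulk samples, fewer cells of a type and less RNA per cell cannot be told apart either. The files pair no ID with a gene name, and the gene table used held 0 entries in its Ensembl column, so no member is named or given a role. For the same reason the labelled cell types could not be checked against marker genes.

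The summed FPKM of a column ran from 528618 in fibroblasts over 774679 in IVF and 885032 in SCNT to 887410 in SCNT with KDM5B, so the columns are not on one common total. The 18 IDs set aside held 5.08% of the fibroblast total, 7.61% of the IVF total, 10.5% of the SCNT total and 11.5% of the total with KDM5B. Library depth is unknown, since means of FPKM keep no read totals. The design text names a BGISEQ instrument for fibroblasts and a HiSeq for embryos, whereas the labelled protocol names a HiSeq alone. If the former holds, the cell type and the instrument cannot be told apart in any fibroblast comparison. Per the protocol, cDNA of the embryo pools was amplified first.

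Although they are 0.677% of the loci, the 152 members held a large part of each column. Their share of the column total was 17.5% in fibroblasts, 23.7% in IVF, 23.7% in SCNT and 21.5% in SCNT with KDM5B. The equal IVF and SCNT shares were made up differently. One locus, ENSBTAG00000038488.2, stood at 2520 FPKM in fibroblasts, 94337 in IVF, 30632 in SCNT and 21778 in SCNT with KDM5B. It alone was 12.2% of the IVF total, against 0.477% in fibroblasts, 3.46% in SCNT and 2.45% with KDM5B. It was the most abundant locus of the whole table in IVF and in SCNT, the next to highest with KDM5B, and 20th in fibroblasts. The other 151 members held 17.1% of the fibroblast total, 11.5% of the IVF total, 20.2% of the SCNT total and 19.1% of the total with KDM5B. IVF thus had the lowest share of the 4 groups once this locus was set aside, and a share close to that of SCNT with it. Taking the locus out of the column total as well gave 17.1%, 13.1%, 20.9% and 19.5% in the same order.

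**Figure D1:**
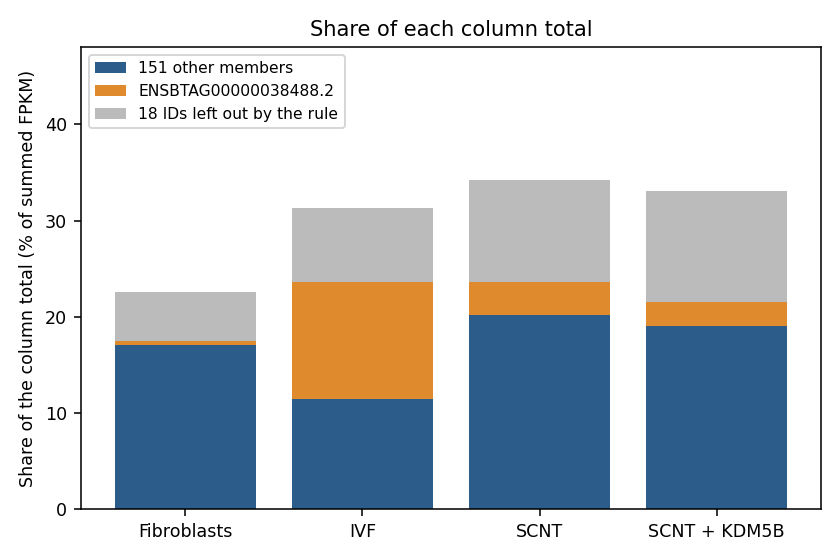
Stacked bars give the share of each column's summed FPKM, in percent, held by the 151 other members (blue), by ENSBTAG00000038488.2 (orange) and by the 18 IDs set aside (grey). The orange part is 12.2% of the IVF column and 0.477% of the fibroblast column.

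The sum was also spread over the members unevenly, and differently in each group. In IVF a single locus, again ENSBTAG00000038488.2, held over 50% of the members' summed FPKM. The same 50% took the 19 highest members in SCNT, 25 in SCNT with KDM5B and 27 in fibroblasts. The median member stood at 289 FPKM in fibroblasts, 288 in IVF, 767 in SCNT and 827 in SCNT with KDM5B. The quartiles were 160 and 967 FPKM in fibroblasts, 170.0 and 698 in IVF, 353 and 1391 in SCNT, and 426 and 1390 with KDM5B. Among the 100 most abundant loci of a column, members filled 40 places in fibroblasts, 29 in IVF, 45 in SCNT and 45 with KDM5B. Of the 152, 148 carried Ensembl IDs and 4 were the authors' own loci, a type that makes up 4802 of the 22445 loci. Those 4 had spreads of 3.61 to 8.59 times between their highest and lowest group, and 3 of them had both clone groups at least 2-fold above fibroblasts and IVF.

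Being abundant everywhere did not mean being equally abundant. The spread of a member was measured as its highest minus its lowest log2(FPKM + 1) over the 4 groups, so that 1 is a 2-fold span. It ran from 0.32 to 5.23 with a median of 2.49, a median ratio of 5.66 between highest and lowest FPKM. Of 152 members, 13 (8.55%) stayed within 2-fold and 139 did not. Among all 17081 loci with at least 1 FPKM in a group, 92.5% spanned at least 2-fold and the median spread was 2.38. The share within 2-fold was 7.53% over those loci, so the members' share lay near the background. Spans of at least 4-fold were held by 100 members, of at least 8-fold by 48 and of at least 16-fold by 12. No share of all loci was computed at these limits, and the all-loci median spread of 2.38 is itself more than 4-fold. A floor of 100 FPKM bounds how far down a member can reach, so wide spans among the members come from high values in at least 1 group.

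Pair by pair, the clone groups were the closest. Between SCNT with and without KDM5B the median size of the log2 difference was 0.33, and 144 members (94.7%) stayed within 2-fold, 120 of them within 1.5-fold. Over 12607 loci the median size was 0.40 and 90.3% stayed within 2-fold, so this closeness was not particular to the members. No share of all loci was computed at 1.5-fold. The members' median size was 1.41 between IVF and SCNT, 1.46 between IVF and SCNT with KDM5B and 1.54 between IVF and fibroblasts. Between fibroblasts and the clone groups it was 1.29 for SCNT and 1.28 for SCNT with KDM5B. By this measure, and for the members alone, the clone groups were no closer to IVF than to fibroblasts, without a test. The same measure over all loci with at least 1 FPKM in either group put both clone groups closer to IVF. For SCNT it was 1.25 to IVF and 1.83 to fibroblasts. For KDM5B embryos it was 1.16 to IVF and 1.77 to fibroblasts. Every member was at 100 FPKM or more in fibroblasts by choice. How far that changed the members' values was not tested. Over the 3 embryo groups 38 members stayed within 2-fold while 114 did not, against 69.5% of 14836 loci spanning at least 2-fold. A span over 3 groups cannot exceed that over 4, so these counts are not comparable with those over all groups.

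Most of the members that differed least were among the less abundant. ENSBTAG00000013533.2 had the smallest spread, with 328 FPKM in fibroblasts, 372 in IVF, 298 in SCNT and 298 in SCNT with KDM5B, a ratio of 1.25 between highest and lowest. ENSBTAG00000021580.5 came next, with 132, 114, 101 and 116 FPKM in the same order and a ratio of 1.31. SCNT was the lowest group for both, and the highest was IVF for the first and fibroblasts for the next. The 13 members within 2-fold ranged from 132 to 715 FPKM in fibroblasts and from 114 to 782 in IVF. They ranged from 101 to 1386 FPKM in SCNT and from 104 to 1273 with KDM5B. A single member held the top value in every group.

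At the other end, the locus with the largest spread was ENSBTAG00000038488.2, given above, with a ratio of 37.4 between IVF and fibroblasts. ENSBTAG00000024909.3 followed, with 270.2 FPKM in fibroblasts, 2563 in IVF, 9409 in SCNT and 4959 with KDM5B, a ratio of 34.8. Both were lowest in fibroblasts, and their highest group differed. Spread went up with level: in the 38 members with the lowest mean, 116 to 394 FPKM, the median spread was 1.42 and 12 of 38 stayed within 2-fold. In the 38 with the highest mean, from 1067 FPKM upward, the median was 3.28 and 0 of 38 did. Part of this is arithmetic, since a member with a low mean cannot have a very high value in any group.

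**Figure D2:**
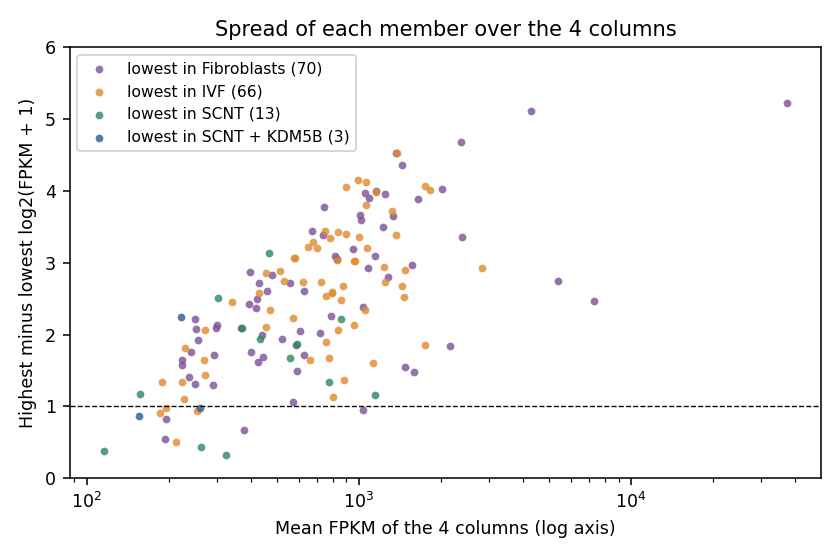
Each point is 1 of the 152 members, placed by its mean FPKM over the 4 groups (log axis) and by its highest minus lowest log2(FPKM + 1), and coloured by the group in which it was lowest. The dashed line marks 2-fold; 13 points lie under it, and 70 members were lowest in fibroblasts and 66 in IVF.

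How far the order of least different members depends on scaling was checked with 5 other rankings of the same 152. Of the 20 members with the smallest spread, 19 were also among the 20 smallest by coefficient of variation, 18 with columns centred on all loci, 11 with columns rescaled to a sum of 1000000, 8 after quantile normalization and 6 with columns centred on the members themselves. Only 5 members stood among the 20 smallest in all 6 rankings, and 5 others among the 20 largest in all 6. One of the first 5 was ENSBTAG00000047186.1, with 288 FPKM in fibroblasts, 378 in IVF, 386 in SCNT and 460 with KDM5B. Another was ENSBTAG00000005127.3, with 163, 184, 191 and 239 FPKM in the same order. Both were lowest in fibroblasts and highest with KDM5B, at ratios of 1.60 and 1.47. The smallest spread of all, that of ENSBTAG00000013533.2, was not among the 5.

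The group in which a member was lowest or highest was counted without any fold limit, beside the same share of the 17081 loci. The lowest value was in fibroblasts for 70 members (43.6% of all loci), in IVF for 66 (20.5%), in SCNT for 13 (22.7%) and with KDM5B for 3 (7.94%). As shares of the members these were 46.1%, 43.4%, 8.55% and 1.97%, so the share lowest in fibroblasts lay near that of all loci. The highest value was in SCNT for 49 (13.3%), with KDM5B for 43 (17.3%), in IVF for 33 (34.4%) and in fibroblasts for 27 (34.9%). Both clone groups stood above both fibroblasts and IVF for 75 members (23.9% of all loci), between them for 44 (35.4%) and below both for 9 (22.8%).

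Patterns required a 2-fold gap, with groups on the same side within 2-fold of each other. Where both clone groups stood apart, fibroblasts and IVF did not have to lie within 2-fold of each other. This sorted 85 of the members into 6 patterns, beside the 13 within 2-fold. In the most frequent, both clone groups were at least 2-fold above fibroblasts and IVF. It held 37 members, 24.3% against 10.1% of the 17081 loci, with medians of 219 FPKM in fibroblasts, 219 in IVF, 1440 in SCNT and 1459 with KDM5B. ENSBTAG00000023462.4 had the largest spread among them, with 503 FPKM in fibroblasts, 106 in IVF, 1900.0 in SCNT and 1459 with KDM5B. IVF alone was low in 26 members, 17.1% against 2.74%, with medians of 1072 FPKM in fibroblasts, 198 in IVF, 1281 in SCNT and 1068 with KDM5B. The rule used all 4 columns, so nothing is read from these excesses.

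The remaining patterns were smaller. Fibroblasts stood alone and low in 11 members (6.3% of all loci had that pattern) and alone and high in 5 (18.1%). IVF stood alone and high in 5 members (8.95%). Both clone groups were low in 1 member (5.19%), ENSBTAG00000015434.3, with 495 FPKM in fibroblasts, 1039 in IVF, 118 in SCNT and 220 with KDM5B. A further 54 fell into none of these. The sizes of the patterns depended on scaling. With columns rescaled to a common sum, the clone-high pattern held 24 members and the IVF-low pattern 27. After quantile normalization they held 20 and 27, and with columns centred on the members 14 and 12.

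**Figure D3:**
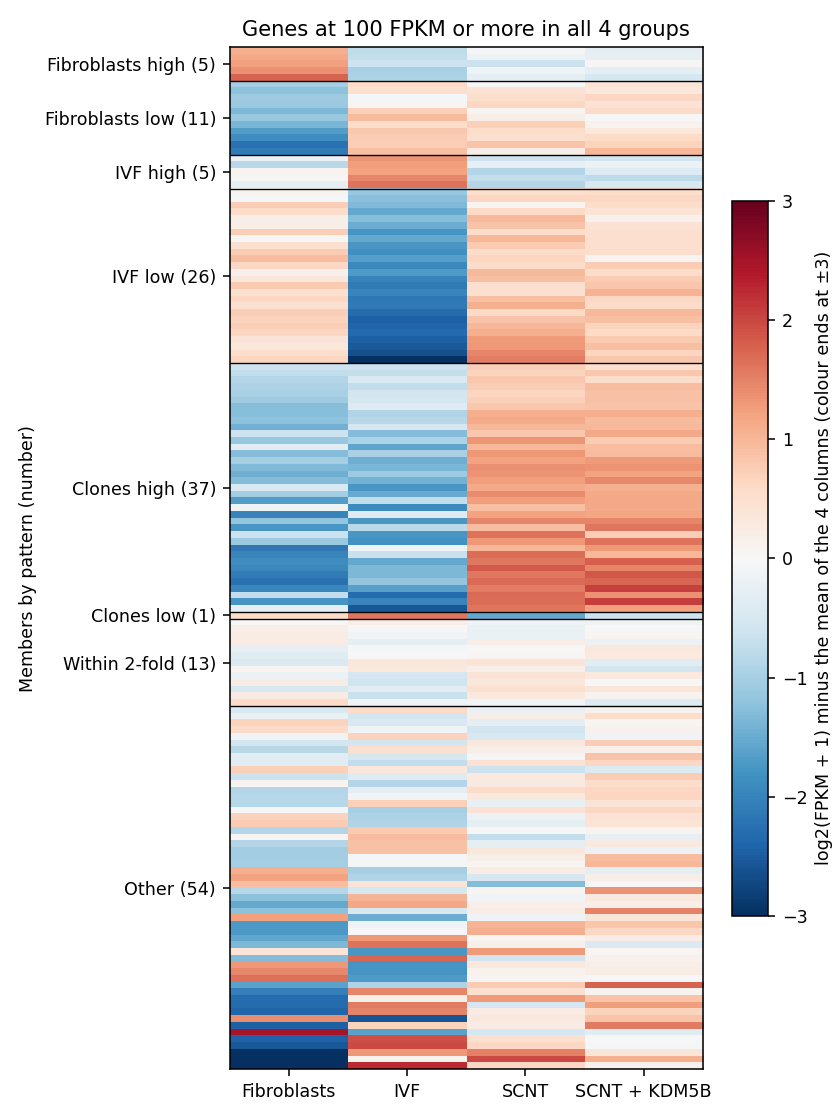
Rows are the 152 members, sorted by pattern, and columns the 4 group means; colour gives log2(FPKM + 1) minus the mean of the 4 columns, red above and blue below. The largest blocks are the 37 members high in both clone groups and the 26 low in IVF alone.

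Members abundant in fibroblasts included most of those low in IVF, and the choice of members limits where such members can lie. With at least 100 FPKM in IVF, a member can stand 2-fold below fibroblasts only if fibroblasts hold about 200 FPKM or more. Of the 53 members at 600 FPKM or more in fibroblasts, a limit set after the values were seen, 42 were lowest in IVF. In 34 of them IVF was at least 2-fold below each of the other groups. These counts were 7 and 3 of 11 members at 400 to 600 FPKM in fibroblasts. At 200 to 400 they were 9 and 2 of 34, and at 100 to 200 they were 8 and 0 of 54. IVF was lowest in 20.5% of all 17081 loci, but no share was computed for loci by fibroblast level. The cause of these counts was not tested. Medians of the 53 were 1113 FPKM in fibroblasts, 281 in IVF, 1245 in SCNT and 1080 with KDM5B; the first of these follows from the limit.

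Cloned and fertilised embryos of the same stage were compared first, the question being which loci nuclear transfer leaves at another level. Members were mostly higher in SCNT: 79 were at least 2-fold higher (24.1% of the 14332 loci with at least 1 FPKM in either group) and 20 at least 2-fold lower (38%), so 99 were apart, 65.1% against 62.1%. The median SCNT minus IVF difference in log2(FPKM + 1) was 1.12 over the members, with quartiles of -0.13 and 2.40, and -0.52 over all loci. ENSBTAG00000019718.3 differed by a ratio of 23.2, between 108 FPKM in IVF and 2515 in SCNT, with 1368 in fibroblasts and 1539 with KDM5B. ENSBTAG00000023462.4 followed with a ratio of 18.0. In the other direction ENSBTAG00000015434.3 had a ratio of 8.84 between IVF and SCNT, and ENSBTAG00000040602.1 one of 5.73, at 727 FPKM in IVF and 127 in SCNT. Fibroblasts held 191 FPKM of the last locus, and embryos with KDM5B 167.

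The members' order was poorly kept between these groups. Across the 152 members Spearman's rho between IVF and SCNT was 0.17 and Pearson's r of log2(FPKM + 1) was 0.35. Members are not independent points, as they share the libraries and the scaling of each column. Every value was also at 100 FPKM or more by choice, which bears on such correlations here and below. No rho over all loci was computed, so how far the cut changed them was not tested. Higher members made up 79.8% of those apart in the deposited values, 84.3% with columns centred on all loci, which moved the all-loci median to -0.32, and 66.7% after quantile normalization. With columns centred on the members they made up 51.6%. The members' median was 1.32, 0.55 and 0.01 under these scalings, in that order, and the all-loci median -0.32, -0.30 and -1.63. Centring on the members is built to bring their medians near 0, so nothing is read from its 51.6% and 0.01.

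Most members stood at similar levels in SCNT with and without KDM5B, a comparison that asks what the enzyme's overexpression changes. Of the 152, 6 were at least 2-fold higher with KDM5B (7.61% of 12607 loci) and 2 at least 2-fold lower (2.13%), together 5.26% against 9.73%. The median difference was 0.03 over the members and 0.21 over all loci, with member quartiles of -0.27 and 0.35. ENSBTAG00000024605.4 showed the largest difference, a ratio of 3.44 between 736 FPKM in SCNT and 2528 with KDM5B, beside 3116 in IVF and 210.4 in fibroblasts. ENSBTAG00000047264.1 stood at 1578 and 4043 FPKM, a ratio of 2.56, beside 2177 in IVF and 247 in fibroblasts. For the first, KDM5B embryos lay between SCNT and IVF, and for the other they lay above both.

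Lower with KDM5B were ENSBTAG00000017441.5, at 1861 FPKM in SCNT against 788, and ENSBTAG00000001575.5, at 4025 against 1822. The first stood at 1005 FPKM in fibroblasts and 227 in IVF, the other at 155 and 3507. A ratio of 4 was reached by 0 members. Spearman's rho between the clone groups was 0.92 and Pearson's r was 0.94. The balance of the few members apart turned with columns centred on all loci, where 5 were higher and 6 lower, against 6 and 2 as deposited. It did not turn when rescaled to a common sum (6 and 2), after quantile normalization (7 and 2) or centred on the members (5 and 2).

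**Figure D4:**
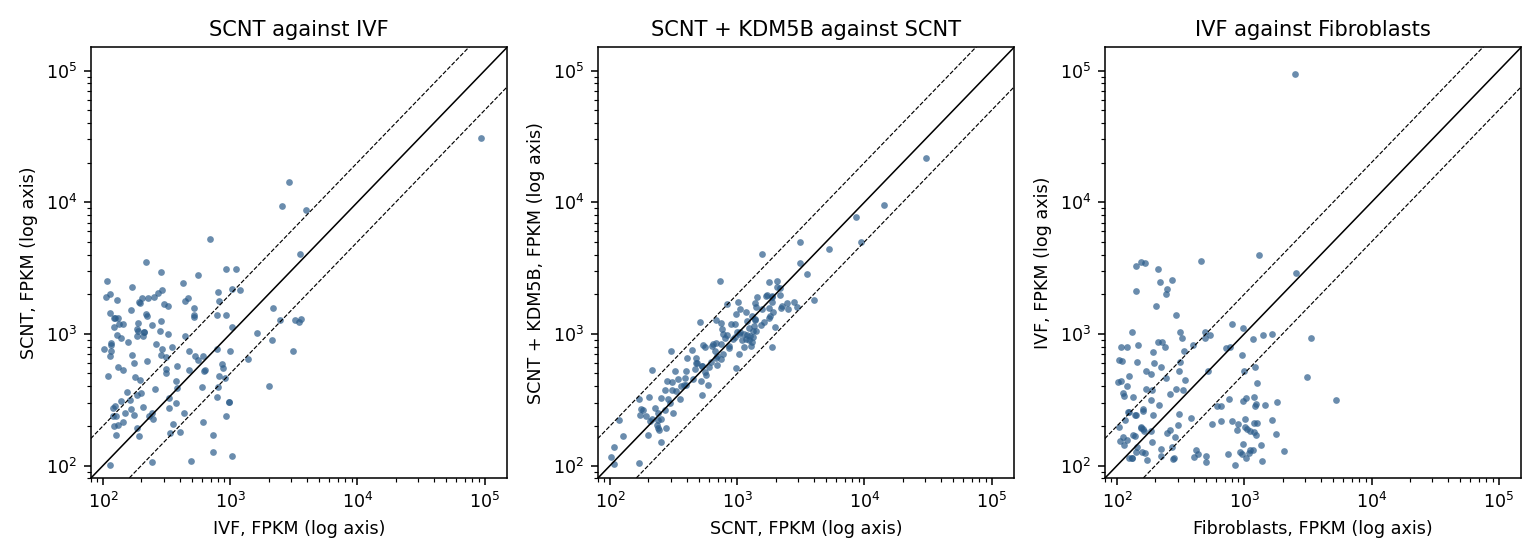
Each point is 1 of the 152 members, with group means in FPKM on log axes; the solid line marks equal values and the dashed lines 2-fold. SCNT with and without KDM5B lie along the line (rho of 0.92). SCNT against IVF (rho of 0.17) and IVF against fibroblasts (rho of -0.01) do not. All values are at 100 FPKM or more by choice, which bears on each rho.

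Embryos with KDM5B were set against IVF in the same way. At least 2-fold higher were 85 members (26.4% of 14538 loci) and lower 15 (31.8%), together 65.8% against 58.3%. The median difference was 1.26 over the members and -0.29 over all loci. ENSBTAG00000005096.4 stood highest relative to IVF, a ratio of 16.8 between 113 FPKM in IVF and 1906 in the KDM5B group, with 1440 in SCNT and 132 in fibroblasts. ENSBTAG00000020345.3 stood lowest, at 495 and 103 FPKM, with 108 in SCNT and 184 in fibroblasts. In both loci the KDM5B group stood near SCNT. Its distance from IVF follows from how these loci were chosen. Of the members apart, 85.0% were higher as deposited, 69.5% after quantile normalization and 48.2% with columns centred on the members. The last of these scalings brings the members' median near 0 by construction. This comparison and the one of SCNT against IVF share the IVF column, so their likeness is not a result.

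Fibroblasts were then compared with each embryo group. Against IVF, 49 members were at least 2-fold higher in fibroblasts (35.6% of 15634 loci) and 44 at least 2-fold lower (40.9%), together 61.2% against 76.5%. The median difference was -0.15 over the members and -0.31 over all loci, but the quartiles were -1.22 and 1.65, so a median near 0 covered large differences both ways. ENSBTAG00000014534.5 was highest in fibroblasts, at 5255 FPKM, with 313 in IVF, 671 in SCNT and 735 with KDM5B, a ratio of 16.8 to IVF. ENSBTAG00000001360.4 stood at 2067 FPKM in fibroblasts and 129 in IVF, with 979 in SCNT and 1427 with KDM5B. The largest opposite differences were those of ENSBTAG00000038488.2 and of ENSBTAG00000008977.3, at 141 FPKM in fibroblasts, 3253 in IVF, 1275 in SCNT and 806 with KDM5B. Spearman's rho between fibroblasts and IVF was -0.01 across the members. The median difference turned to 0.40 with columns rescaled to a common sum (0.15 over all loci), where 62 members were higher and 34 lower.

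Against the clone groups the members leaned one way. In fibroblasts 16 were at least 2-fold higher than in SCNT (38.6% of 14703 loci) and 72 lower (36.7%), 57.9% against 75.4% in all, with a median of -0.94 beside 0.02 over all loci. Against SCNT with KDM5B 13 were higher (34.9% of 15136 loci) and 76 lower (39.6%), 58.6% against 74.5% in all, with a median of -1.06 beside -0.29. ENSBTAG00000014534.5 was the member highest in fibroblasts relative to either clone group, with ratios of 7.83 and 7.15. ENSBTAG00000024909.3 was the lowest relative to either, with SCNT 34.8 times and KDM5B embryos 18.4 times the fibroblast level. Spearman's rho was 0.37 to SCNT and 0.34 to SCNT with KDM5B. The lean depended on scaling: higher members were 18.2% of those apart from SCNT and 14.6% of those apart from KDM5B embryos as deposited, and 40.5% and 34.6% with columns rescaled to a common sum. After quantile normalization they were 41.6% and 41.5%, and with columns centred on the members 47.6% and 52.3%. The last of these scalings brings the members' medians near 0 by construction. The medians moved too, from -0.94 against SCNT to -0.20 rescaled to a common sum, -0.28 rescaled without the IDs set aside and -0.12 after quantile normalization. Against KDM5B embryos, -1.06 became -0.31, -0.41 and -0.22 in the same order. Over all loci the medians became 0.67, 0.60 and -0.29 against SCNT, and 0.35, 0.27 and -0.36 against KDM5B embryos. The members' medians thus stayed below those of all loci in both rescalings, but not after quantile normalization. With columns centred on all loci the lean stayed, with medians of -0.85 against SCNT and -0.77 against KDM5B embryos. Higher members were then 21.6% and 20.7% of those apart.

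**Figure D5:**
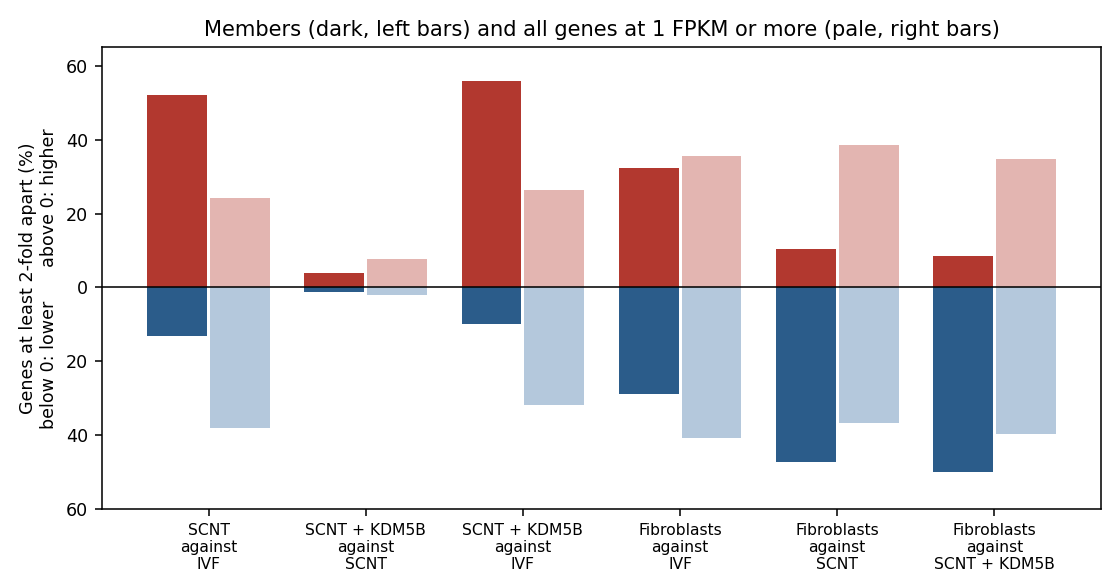
For each of the 6 pairs of groups, dark bars give the percent of the 152 members at least 2-fold higher (red, above 0) or lower (blue, below 0) in the group named first, and pale bars the same for all loci with at least 1 FPKM in either group. In SCNT against IVF the members split 52.0% higher and 13.2% lower, all loci 24.1% and 38%.

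Values just inside and outside the limit show how close the boundary runs. The member with the lowest minimum was ENSBTAG00000021580.5, at 101 FPKM in SCNT, and the next was ENSBTAG00000015989.3, at 101 in IVF with 844 in fibroblasts, 773 in SCNT and 1000.2 with KDM5B. Outside, ENSBTAG00000004428.3 missed the limit with 99.7 FPKM in fibroblasts, although it stood at 2016 in IVF, 11292 in SCNT and 8558 with KDM5B. ENSBTAG00000018593.3 missed it with 98.9 in IVF, beside 118, 313 and 291 FPKM in fibroblasts, SCNT and SCNT with KDM5B.

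By number of loci, the members were a small part of what was abundant in any one group. The lists at 100 FPKM or more held 755 loci for fibroblasts, 1067 in IVF, 1160 in SCNT and 1215 with KDM5B, the 18 IDs aside, and the members were 20.1%, 14.2%, 13.1% and 12.5% of these. Fibroblasts and IVF shared 174 of them, 23.0% of the fibroblast list and 16.3% of the IVF list. IVF and SCNT shared 586, 54.9% and 50.5%, and the clone groups shared 1042, 89.8% of the SCNT list and 85.8% of the KDM5B list. The 3 embryo groups shared 551. By summed FPKM the lists held 60.5% of the fibroblast total, 70.2% in IVF, 72.6% in SCNT and 70.2% with KDM5B. Members held 17.5%, 23.7%, 23.7% and 21.5% in the same order, a larger part of the lists than by number.

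A further 511 loci reached the limit in 3 groups and missed it in the fourth. Fibroblasts were the missing group for 399, with a median of 22.3 FPKM there, and 25 of these were listed at 0. IVF was missing for 103, with a median of 41.5 FPKM and 1 listed at 0. SCNT was missing for 9, all at 51.8 FPKM or more, and SCNT with KDM5B for 0.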

How the data were processed

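RNA sequencing libraries of 4 groups of 3 were described in the labels. The authors deposited 1 table of FPKM values, a single column for each group. These columns appear to be means of 3 libraries, since at least 99.9955% of the values are whole multiples of 0.01 divided by 3 (tolerance 0.001 on the value times 300). Per the submitters' processing notes, the tools named without a role are RSEM 1.2.12, StringTie 1.0.4, HISAT 0.1.6, Bowtie2 2.2.5 and bcl2fastq 2.16, and the build UMD3.1. Their filters and annotation were not given in the sources used here. Normalizing to library totals and amplifying cDNA of few cells can shift whole columns, so other scalings were tried.

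The members, lists and tests were chosen with earlier results of these data known. Tests across libraries could not be fitted to group means, so differences of log2(FPKM + 1) were counted at 2-fold. Backgrounds used loci with at least 1 FPKM in either group of a pair, or in any group. No p-value, interval or depth could be given. IDs could not be matched to names in the gene table used (assembly ARS-UCD2.0, 37063 entries). By the rule for that case, the 2 loci farthest apart each way in a comparison, the 2 with the smallest and the 2 with the largest spread, and loci next to the limit were chosen for naming; for clone groups against fibroblasts and KDM5B against IVF only the first each way is given. The members named from stable rankings and from patterns were chosen after their values were seen. Gene lists and sequences were not used here. The counting code was tested on simulated data. Python 3.11.15, numpy 2.4.6, pandas 2.3.3 and matplotlib 3.10.9 were used.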

Additional observations from a re-analysis of the deposited data

How the results depend on the processing

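Across the alternatives, 131 recomputed main values lay within 1.5 times of the reported ones and 19 did not. The 131 include values that could not change. Dropping the background filter leaves every member value as it was, and rescaling a column to a common sum leaves its shares as they were. A limit of 50 FPKM gave 393 members, with 38.2% of the SCNT total and 35.3% of the total with KDM5B. A limit of 200 gave 63 members, with 10.9% of the fibroblast total, 15.7% of the SCNT total and 13.8% with KDM5B. The limit applied after rescaling to a sum of 1000000, which raises fibroblast values most, gave 273 members. Putting back the IDs set aside raised every share, to 22.1% in fibroblasts, 31.3% in IVF, 34.2% in SCNT and 33.0% with KDM5B. Without ENSBTAG00000038488.2, a choice made after the data were seen, the IVF share was 13.1%. A limit of 1.5-fold left 3.29% of members within it over all groups and 21.1% apart between the clone groups. A limit of 4-fold left 34.2% within it over all groups. It put 38.2% of members apart between SCNT and IVF, 0% between the clone groups, 31.6% between KDM5B embryos and IVF, and 36.2%, 30.9% and 29.6% for fibroblasts against IVF, SCNT and SCNT with KDM5B.

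Some member medians changed sign with scaling; the cause was not tested. KDM5B minus SCNT became -0.17 with columns centred on all loci and -0.0368 with columns centred on the members, the latter chosen after seeing the data. Fibroblasts minus IVF became 0.40 rescaled to a common sum, 0.36 rescaled without the IDs set aside, 0.14 centred on all loci and 0.28 after quantile normalization. Centred on the members, fibroblasts minus SCNT became 0.0698 and minus KDM5B embryos 0.0248, as that scaling is built to bring these medians near 0. Pseudocounts of 0.1 and 5 changed the sign of no member median, and no filter on low values acts on the background only. With Ensembl IDs alone, fibroblasts minus IVF was -0.0829 in place of -0.15.

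No paired analysis was possible because each column is 1 mean per group, without replicate numbers. Leaving out replicates was not run for the same reason.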
